A study of Mus musculus with 30 samples.

Results

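The regions described here carried acetylation of histone H3 at lysine 56 (H3K56ac) without acetylation at lysine 27 (H3K27ac) in lymphoid cells of C57BL/6 mice. The peaks of 12 ChIP-seq lists, 2 per mark and group for H3K27ac, H3K18ac and H3K56ac, were merged into 50044 regions wherever they overlapped or touched. A region was a member if it held an H3K56ac peak in both lists of 1 group and no H3K27ac peak in any of the 4 H3K27ac lists, which left 588 members. They are split into 141 B cell members, with H3K56ac in both B cell lists but not in both disease lists, 426 LPD members, with the reverse, and 21 shared members with H3K56ac in all 4 lists. The members were thus selected on their H3K56ac and H3K27ac peaks, so neither mark is tested on them. They made up 2.99% of the 19696 regions with H3K56ac in both lists of a group, and the other 19108, which held an H3K27ac peak, are the comparison set used below.

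The series deleted the acetyltransferase gene Crebbp with an inducible Cre and profiled lymphoid cells at several stages. The B cell lists came from B220+ splenic B cells of wild-type mice (CBPfl/fl:Mx-Cre-), sorted by flow cytometry. The LPD lists came from bulk splenocytes of mice with lymphoproliferative disease (LPD) and the genotype Crebbp-/- (CBPfl/fl:Mx-Cre+). The Mx promoter that drives Cre is active in many cell types once induced, so the deletion is not limited to B cells. Both groups carry the floxed CBP alleles. Genotype, disease and sorting differ at once between the groups and cannot be told apart. The labels do not say whether the 2 lists of a mark and group came from separate animals, so every spread given is between lists and may be technical. Further lists used here are 1 of CBP itself in wild-type B cells and 1 of H3K27ac in each of wild-type and Crebbp-/- Lin- IL7ra+ progenitors. Of the 30 samples, the 15 with peak lists were analysed, and the RNA-seq and input samples were not analysed here.

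H3K56ac lies in the globular part of histone H3, close to where DNA enters and leaves the nucleosome, and is known both from newly deposited histones and from active promoters and enhancers. H3K18ac and H3K27ac lie on the tail of the histone. CBP, the product of Crebbp, and its relative p300 are the main writers of H3K18ac and H3K27ac and also acetylate H3K56. H3K27ac is the mark most often used to define active enhancers.

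The deposited lists hold peak positions on mm10 and no scores or read counts, so depth is unknown and peak number and covered length stand in for it. The H3K56ac lists held 20392 and 18763 peaks in B cells and 28222 and 28934 in LPD. Covered length of H3K27ac was 27.1 and 26.4 Mb in B cells and 26.2 and 18.2 Mb in LPD, so the second LPD list was the shortest of the 4. As a check of the labels, peaks were found at 5 or 6 of the 6 B cell markers in every acetylation list. T and NK cell markers had peaks at 2 of 7 genes (Cd3d and Lck) in 10 lists and at 3 of 7, with Cd4 added, in both LPD H3K56ac lists. Marker peaks were counted over each gene and 1 kb around it, and the window of Cd4 holds an LPD member that lies outside that gene. Cd3e, Cd3g, Cd8a and Ncr1 were at 0 in every list, myeloid markers had peaks at 0 or 1 of 7 genes, and erythroid and megakaryocyte markers at 1 to 3 of 7. Summed length over the T and NK markers ranged from 3.33 to 6.85 kb in the B cell lists and from 3.01 to 7.84 kb in the LPD lists, and that over the myeloid markers was 0 in the B cell lists and up to 0.426 kb in LPD. The part of other cell types in the members was not tested. Crebbp (chr16:4081334-4213957) and Ep300 (chr15:81586209-81652077), which encodes p300, had no member. H3K56ac covered 0.725 and 0.599 kb of Crebbp in the B cell lists and 1.64 and 1.69 kb in the LPD lists, and peaks over this gene do not check its deletion.

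To show what DNA lies under such peaks, the narrowest and the widest member at an annotated transcription start is printed for each class. Each run is the stretch just before the start (at most 250 bases) that lies inside the member, 5′ to 3′ on the gene's strand, which is the minus strand for all 6 genes. Sequences are from RefSeq on GRCm38.p6, the assembly that mm10 names. Capitals mark CG dinucleotides, the letters that make up CpG islands.
Fbxo10, B cell member, chr4:45084556-45084645: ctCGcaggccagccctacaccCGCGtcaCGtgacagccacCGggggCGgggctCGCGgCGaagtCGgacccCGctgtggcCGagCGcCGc
Zfp365, B cell member, chr10:67912663-67912760: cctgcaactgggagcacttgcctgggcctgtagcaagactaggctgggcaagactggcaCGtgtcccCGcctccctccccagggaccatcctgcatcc
Colca2, LPD member, chr9:51278555-51278576: tagggagcctCGggatgccatt
Card10, LPD member, chr15:78803043-78803292: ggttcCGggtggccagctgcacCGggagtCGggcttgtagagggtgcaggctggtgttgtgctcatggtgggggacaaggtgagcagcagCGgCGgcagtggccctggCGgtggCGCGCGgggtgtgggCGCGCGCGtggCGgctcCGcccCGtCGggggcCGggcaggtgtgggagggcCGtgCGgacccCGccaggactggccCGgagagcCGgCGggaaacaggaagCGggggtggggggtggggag
Sec14l2, shared member, chr11:4118730-4118817: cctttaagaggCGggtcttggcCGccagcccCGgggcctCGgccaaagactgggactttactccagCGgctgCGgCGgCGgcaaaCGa
Irs3, shared member, chr5:137645715-137645932: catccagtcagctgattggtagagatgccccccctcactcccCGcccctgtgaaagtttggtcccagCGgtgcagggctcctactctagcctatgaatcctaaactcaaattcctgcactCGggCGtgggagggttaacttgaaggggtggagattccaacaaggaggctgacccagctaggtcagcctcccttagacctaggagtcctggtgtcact

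These stretches ranged from CpG-rich to CpG-poor. The 250 bases before Card10, which encodes a scaffold of NF-κB signalling, held 25 CG dinucleotides at 76.0% G and C. The 98 bases before Zfp365 held 2, and the 218 bases before Irs3, an insulin receptor substrate gene, held 4. At Fbxo10, which encodes the F-box subunit of a ubiquitin ligase, the member was 234 bp wide and was covered by H3K56ac for 201 and 217 bp in the B cell lists and for 211 and 0 bp in the LPD lists, with no H3K18ac in any list. At Card10 the member was 1370 bp wide, and H3K18ac covered 0 bp in both B cell lists against 1370 and 753 bp in the LPD lists.

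The median width of the members was 461 bp, and the widest spanned 2313 bp. The median was 1219 bp for H3K56ac regions with H3K27ac, but each of those includes at least 1 H3K27ac peak that no member can, so this gap is partly fixed by the rule. The class medians were 437 bp for B cell, 472 bp for LPD and 479 bp for shared members. Mean H3K56ac length in the defining lists had a median of 307 bp in B cell members and 296 bp in LPD members, where the corresponding H3K56ac regions with H3K27ac had medians of 410 and 467.5 bp. Among H3K56ac regions, the share that lacked H3K27ac was smaller where H3K56ac was longer. It was 16.8% (145 of 865) for a mean length from 200 to under 250 bp, 7.07% (201 of 2842) from 300 to under 400 bp and 0.227% (12 of 5291) from 600 to under 1000 bp, and no region of 1000 bp or more was a member. A longer peak has more bases that can meet an H3K27ac peak, as an overlap of 1 bp counts. The part of this in the fall was not tested.

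**Figure D1:**
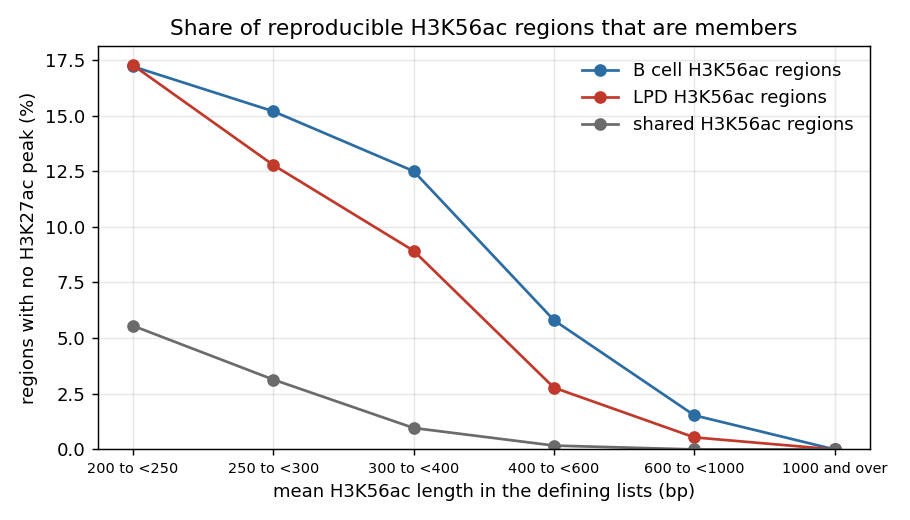
Percent of H3K56ac regions without any H3K27ac peak (y axis) by mean H3K56ac length in the lists that define the class (x axis, bp), with 1 line per class. The B cell and LPD lines start at 17.2% and 17.3% for 200 to under 250 bp, the shared line starts at 5.56%, and each line reaches 0 at 1000 bp and over.

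By class, 9.06% of the 1556 B cell H3K56ac regions were members (95% Clopper-Pearson interval 7.68 to 10.6%), 5.72% of the 7446 LPD regions (5.20 to 6.27%) and 0.196% of the 10694 shared regions (0.122 to 0.30%). These intervals, and those below, cover counting error over regions only. H3K56ac that was called in all 4 lists lacked H3K27ac less often than H3K56ac called in both lists of 1 group. Both marks were used by the rule, so this is a description and no test. Shared H3K56ac regions with H3K27ac also had longer H3K56ac, at a median of 786 bp against 410 bp for B cell and 467.5 bp for LPD. The part of length in these shares was not tested. The counts rest on the choice of lists. LPD members outnumbered B cell members 426 to 141, a log2 ratio of 1.60, but with every list of a mark shortened to equal covered length (its widest peaks kept) the counts were 1 LPD and 618 B cell members. Without the second B cell H3K56ac list the counts were 388 and 574, and without the first LPD H3K27ac list they were 1086 and 148.

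The values just inside and just outside the rule show how near many members lie to it. There were 1762 regions with no H3K27ac and with H3K56ac in 1 list of a group but both lists of neither, and their median width was 303 bp. Another 818 regions had the H3K56ac peaks of a member and H3K27ac in exactly 1 list, 715 of them with the LPD pattern. In 617 of these 715 the H3K27ac peak was in the first LPD list alone, in 55 in the second LPD list, in 31 in the first B cell list and in 12 in the second. Within the rule, 74 members (12.6%) had an H3K27ac peak within 200 bp of their edge.

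H3K56ac itself, the mark the rule used, is given as a description. Over the LPD members it covered 133 and 134 kb in the LPD lists against 11.8 and 4.55 kb in the B cell lists. Over the B cell members it covered 48.9 and 43.9 kb in the B cell lists against 4.07 and 6.91 kb in the LPD lists. Over the 21 shared members the 4 lists lay between 6.36 and 7.27 kb. Among all merged regions, 11.3% had H3K56ac in the 2 LPD lists and in no B cell list, and 2.12% the reverse. Of the LPD members, 371 had no H3K56ac in either B cell list and 55 had it in 1. Of the B cell members, 104 had none in the LPD lists and 37 had it in 1.

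H3K18ac peaks helped to draw the regions and to split the members. The rule did not name H3K18ac, but a peak of it could join H3K56ac to H3K27ac and so remove a region. With merged H3K56ac peaks as units there were 626 members, 464 of them LPD members, of which 344 had H3K18ac. H3K18ac was present at 386 of the 588 members in at least 1 of 4 lists (65.6%, interval 61.7 to 69.5%). The share was 97.6% in the H3K56ac regions with H3K27ac and 76.9% in all merged regions. By class it was 71.8% in LPD members (306 of 426, interval 67.3 to 76.1%) and 45.4% in B cell members (64 of 141, interval 37.0 to 54.0%), and 76.2% in shared members (16 of 21, interval 52.8 to 91.8%). Their counterparts with H3K27ac stood at 96.2%, 91.5% and 99.3%. Members were also narrower, at a median of 461 against 1219 bp, and the part of width in these shares was not tested. Most LPD members with H3K18ac had it in both LPD lists (226), and 201 of the 426 had it in exactly 2 of the 4 lists. B cell members with H3K18ac mostly had it in a single list (33 of 64). If H3K18ac was counted only where both lists of a group had it, the shares were 53.5% for LPD and 21.3% for B cell members. With lists of equal covered length H3K18ac was at 73.3% of 618 B cell members, and 1 LPD member was left. Those 618 are a different set of regions, as the shortening also dropped H3K27ac peaks. Their share is therefore not comparable with those of the full lists.

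**Figure D2:**
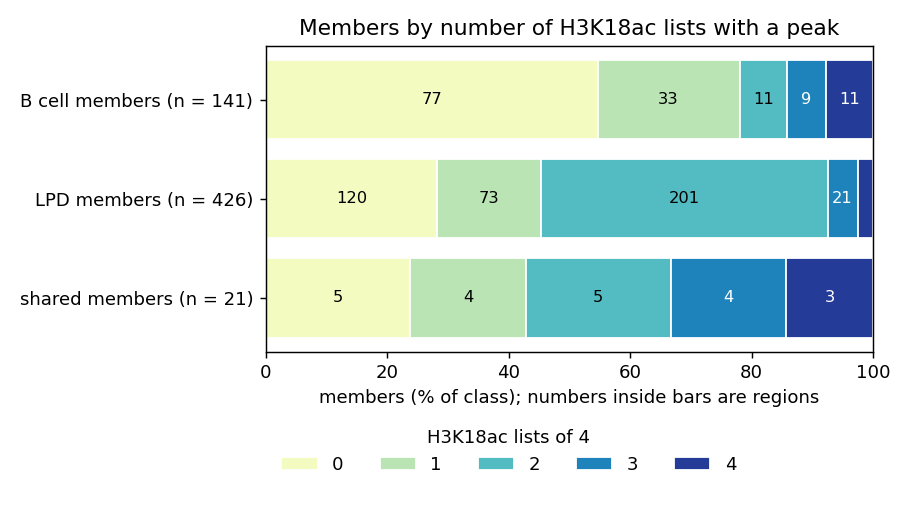
Members of each class by the number of H3K18ac lists (0 to 4) with a peak; the x axis is percent of the class and the numbers inside the bars are regions. Regions with no H3K18ac made up 77 of 141 B cell, 120 of 426 LPD and 5 of 21 shared members, and the unlabelled end of the LPD bar is the 11 regions with H3K18ac in all 4 lists.

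Over the LPD members, both LPD lists held more H3K18ac than either B cell list. It covered 8.26 and 8.40 kb in the B cell lists and 167 and 119 kb in the LPD lists. Both LPD lists lay far above both B cell lists, with means of 8.33 ± 0.0990 kb and 143 ± 34.0 kb (SD, n = 2 lists each). The log2 difference was 4.08, with an exact two-sided permutation p = 0.33, the smallest that 2 lists against 2 allow, so the design cannot pass 0.05 whatever the size. These members were chosen by H3K56ac in the LPD lists, and a mark that goes along with H3K56ac would be higher there by that choice. The comparison is thus a description and no independent support for a group difference. The number of LPD members with an H3K18ac peak was 27 in each B cell list and 290 and 238 in the LPD lists. Where it was present in LPD, H3K18ac had a median length of 488.5 and 412.5 bp in the 2 lists, longer than H3K56ac in the same lists at 276.5 and 289.5 bp. Of the LPD members, 196 (46.0%) had H3K18ac in the 2 LPD lists and in no B cell list, against 19.9% of all merged regions and 55.2% of the LPD H3K56ac regions with H3K27ac. In the latter the log2 difference in H3K18ac length was 2.72. The H3K18ac lists of LPD were also longer across the genome, at 29.5 and 21.4 Mb against 13.3 and 14.0 Mb in B cells, and the part of this in the member values was not tested.

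Over the B cell members, H3K18ac covered 13.8 and 16.1 kb in the B cell lists and 12.5 and 5.73 kb in the LPD lists. The groups did not overlap, but the first LPD list lay close to the lower B cell list. The log2 difference was -0.81 (exact two-sided permutation p = 0.33, n = 2 lists each). These members were chosen by H3K56ac in the B cell lists, so this comparison too is not independent of the choice. The log2 difference was -1.58 without the first LPD H3K18ac list and -0.25 without the second. Over the 618 B cell members found with lists of equal covered length, a different set of regions, it was -4.57. A peak was present in 36 and 44 of the 141 regions in the B cell lists and in 30 and 16 in the LPD lists. Of the B cell members, 9 (6.38%) had H3K18ac in the 2 B cell lists and in no LPD list, against 2.83% of all merged regions and 27.2% of the B cell H3K56ac regions with H3K27ac. Few B cell members had the mark in both B cell lists to begin with. Of the 26 that did, those 9 are 34.6% (interval 17.2 to 55.7%), against 36.4% (385 of 1059) of the counterparts with H3K27ac. No LPD member had H3K18ac in the 2 B cell lists and in no LPD list. Over the shared members the lists overlapped, with 1.88 and 4.52 kb in the B cell lists and 4.57 and 2.78 kb in those of LPD (log2 difference 0.29, exact p = 0.667).

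**Figure D3:**
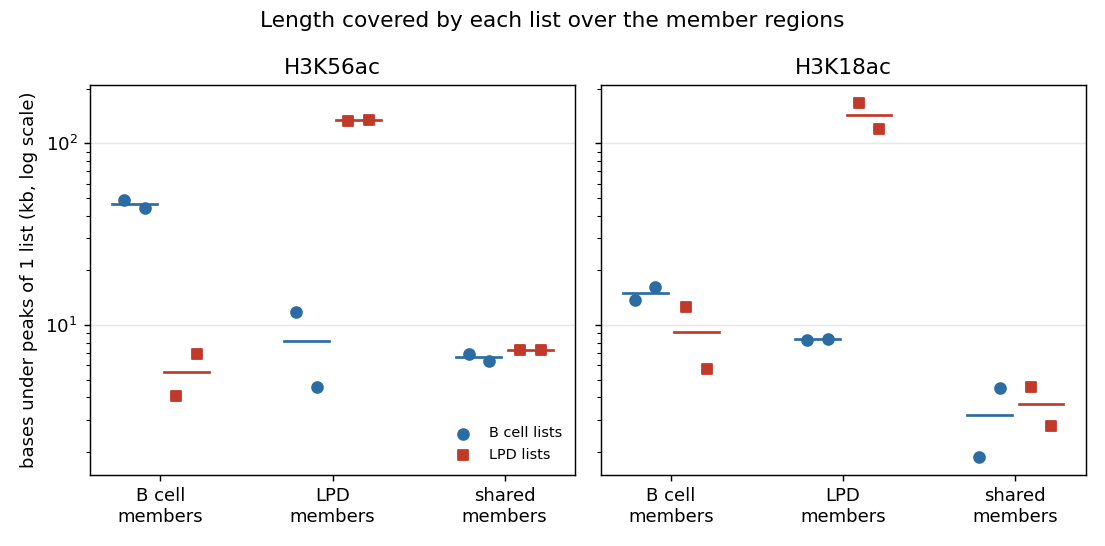
Bases under the peaks of each list over the members of each class (y axis, kb, log scale), for H3K56ac on the left, which chose the members, and H3K18ac on the right; each point is 1 list and each line the mean of 2. H3K18ac over LPD members is near 8 kb in both B cell lists and over 100 kb in both LPD lists, while over shared members the lists overlap.

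Most members did not lie beside H3K27ac. The median distance to the nearest H3K27ac peak of any list was 10.6 kb, with 10.8 kb for B cell, 10.4 kb for LPD and 8.54 kb for shared members. An H3K27ac peak lay within 1 kb of 23.8% of the members and over 50 kb away from 12.1%. Among LPD members, those without H3K18ac lay nearer, at a median of 6.50 kb against 12.6 kb, and 35.0% of them (42 of 120, interval 26.5 to 44.2%) lay within 1 kb against 19.6% with H3K18ac (60 of 306, interval 15.3 to 24.5%). An H3K18ac peak that joined H3K56ac to H3K27ac removed the region, so this contrast is partly fixed by the merging. With merged H3K56ac peaks as units, LPD members with H3K18ac numbered 344 instead of 306. Regions with H3K18ac in both lists of a group and neither H3K27ac nor member H3K56ac, 3114 in all, had a median distance of 4.02 kb, with 33.2% within 1 kb.

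**Figure D4:**
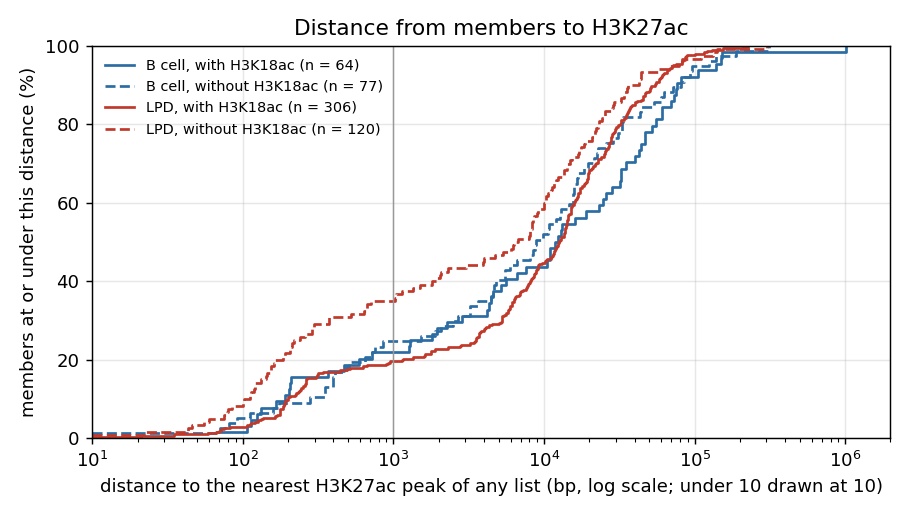
Cumulative percent of members (y axis) by distance to the nearest H3K27ac peak of any list (x axis, bp, log scale), with and without H3K18ac, for B cell and LPD members; the grey line marks 1 kb. At 1 kb the LPD members without H3K18ac stand at 35.0% and those with it at 19.6%, a gap that the merging of regions partly fixes.

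Of the 588 members, 198 (33.7%, interval 29.9 to 37.7%) lay within 1 kb of either end of a protein-coding gene, against 50.8% of the H3K56ac regions with H3K27ac and 26.98% of all merged regions. By annotation, 69 (11.7%) held a RefSeq transcription start, against 34.9% and 14.8% in the same order. A gene span was overlapped by 62.4% of the members, against 75.8% and 67.5%, and 185 members lay between genes. B cell members were near a gene end in 40.4% of cases (57 of 141, interval 32.3 to 49.0%), against 23.6% of the B cell H3K56ac regions with H3K27ac (interval 21.4 to 25.9%). LPD members were near one in 30.5% (130 of 426, interval 26.2 to 35.1%), against 29.1% of their counterparts. Shared members were near one in 52.4% (11 of 21, interval 29.8 to 74.3%), against 68.6%. Within the LPD class, 51.7% of the members without H3K18ac lay near a gene end (62 of 120, interval 42.4 to 60.9%) and 22.2% of those with it (68 of 306, interval 17.7 to 27.3%). Starts were held by 9.17% and 8.82% of them. Among B cell members the order was the opposite, at 37.7% without H3K18ac (29 of 77, interval 26.9 to 49.4%) and 43.8% with it (28 of 64, interval 31.4 to 56.7%), with intervals that overlap. Regions with H3K18ac in both lists of a group and neither H3K27ac nor member H3K56ac were near a gene end in 8.57%. No member overlapped a tRNA, snRNA or miRNA gene, where 0 of 588 allows a share of up to 0.510%. Of all merged regions, 0.170%, 0.0819% and 0.232% did. Each share is below that limit, so these zeros do not set the members apart.

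Promoters in the members were rich in G and C but held fewer CG dinucleotides for their base content than promoters under H3K56ac with H3K27ac. The 83 RefSeq promoters (300 bases each, from 74 genes) whose start lay in a member had a median G and C content of 63.3% and a median of 20 CG dinucleotides. The 8756 promoters with both marks had 61.7% and 22, and all 32851 promoters 52.7% and 7. The ratio of observed to expected CG dinucleotides had medians of 0.658, 0.807 and 0.384 in the same order, and 62.7%, 78.8% and 35.8% of the promoters reached 0.6. Letter matches on either strand were counted for 12 motifs. The SP and KLF motif GGGCGGGG was found in 20.5% of member promoters, 32.2% of those with both marks and 17.6% of all. The ETS motif CCGGAAGT was found in 1 of the 83 (1.20%), 10.6% and 3.89%, and the NRF1 motif GCATGCGC in 0 of 83 (a limit of 3.61%), 5.94% and 2.71%. The CTCF core AGGGGGC was found in 22.9%, 15.7% and 10.6%, and the EBF1 motif CCCNNGGG in 25.3%, 18.4% and 13.7%. A match is a run of letters and not a bound site.

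CBP peaks lay at 1 member. The CBP list of wild-type B cells held 1000 peaks, and 1 of 588 members overlapped one (0.170%, interval 0.00431 to 0.944%), against 785 of the 19108 H3K56ac regions with H3K27ac (4.11%) and 1.79% of all merged regions. The comparison set is mostly shared regions, where the share was 6.30%. By class, LPD members stood at 0.235% (interval 0.00594 to 1.30%) against 1.03% of their counterparts, which lies inside that interval, and B cell members at 0 against 2.90%. For the B cell members, 0 of 141 allows a share of up to 2.13%, or 2.58% by the Clopper-Pearson interval. Members were also narrower than their counterparts, with median widths of 437 against 1146 bp for B cell and 472 against 962 bp for LPD. A narrower region has less room to meet a CBP peak, and the part of width in these shares was not tested. The 1 member is an LPD region between genes near Wsb1 (chr11:79207078-79207911), 31470 bp from a gene end. H3K18ac covered it for 431 and 365 bp in the B cell lists and 760 and 678 bp in the LPD lists, while H3K56ac was 0 in both B cell lists and 228 and 200 bp in LPD. This region was named after its values were seen.

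A minority of members carried H3K27ac in progenitors, each genotype having 1 list. Wild-type progenitor H3K27ac overlapped 30 of 141 B cell members (21.3%, interval 14.8 to 29.0%), 21 of 426 LPD members (4.93%, interval 3.08 to 7.44%) and 4 of 21 shared members. The shares in H3K56ac regions with H3K27ac were 41.4%, 19.6% and 84.0%, and 24.8% of all merged regions had such a peak. Over all members the share was 9.35%, and 17.5% if a peak within 1 kb counted. It was 39.4% over the 620 members found with lists of equal covered length, a different set of regions. In Crebbp-/- progenitors, whose list was shorter (13125 peaks against 17124), the numbers were 20, 9 and 4 (5.61% of all members, against 19.4% of all merged regions). An example is the pair of B cell members at the divergent genes Kdm1b, which encodes a histone H3K4 demethylase, and Tpmt, which encodes thiopurine methyltransferase.

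The LPD members were unevenly spread over the chromosomes. Chromosome 15 held 61 and chromosome 17 held 66, together 29.8% of the 426, against 16.9% of the LPD H3K56ac regions with H3K27ac, 11.2% of all merged regions and 3.55% of the B cell members (5 of 141). Of the LPD H3K56ac regions, 9.09% on chromosome 15 and 10.2% on chromosome 17 were members, where the other 17 autosomes ranged from 3.23 to 7.95% with a median of 4.95%. LPD members lay in 10 of the 11 windows of 10 Mb on chromosome 15 and in all 9 on chromosome 17. Peak numbers moved with this. The log2 ratio of LPD to B cell peak numbers was 1.23 for H3K18ac, 1.12 for H3K56ac and 0.36 for H3K27ac on chromosome 15, and 1.04, 0.92 and 0.27 on chromosome 17. The highest value on any other chromosome was 0.79 for H3K18ac (chromosome 4), 0.76 for H3K56ac (chromosome X) and 0.12 for H3K27ac (chromosome 12). The part of these peak numbers in the LPD members was not tested. Without both chromosomes there were 299 LPD and 136 B cell members, and H3K18ac over the LPD members differed by 3.96 on the log2 scale. Chromosome X had no member, where 0 of 588 allows a share of up to 0.510%, against 1.55% of the H3K56ac regions with H3K27ac. For LPD members, 0 of 426 allows up to 0.704%, against 1.98% of their counterparts. For B cell and shared members the limits were 2.13% and 14.3%, above the 1.20% and 1.32% of their counterparts. The zeros of these 2 classes therefore do not set them apart.

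**Figure D5:**
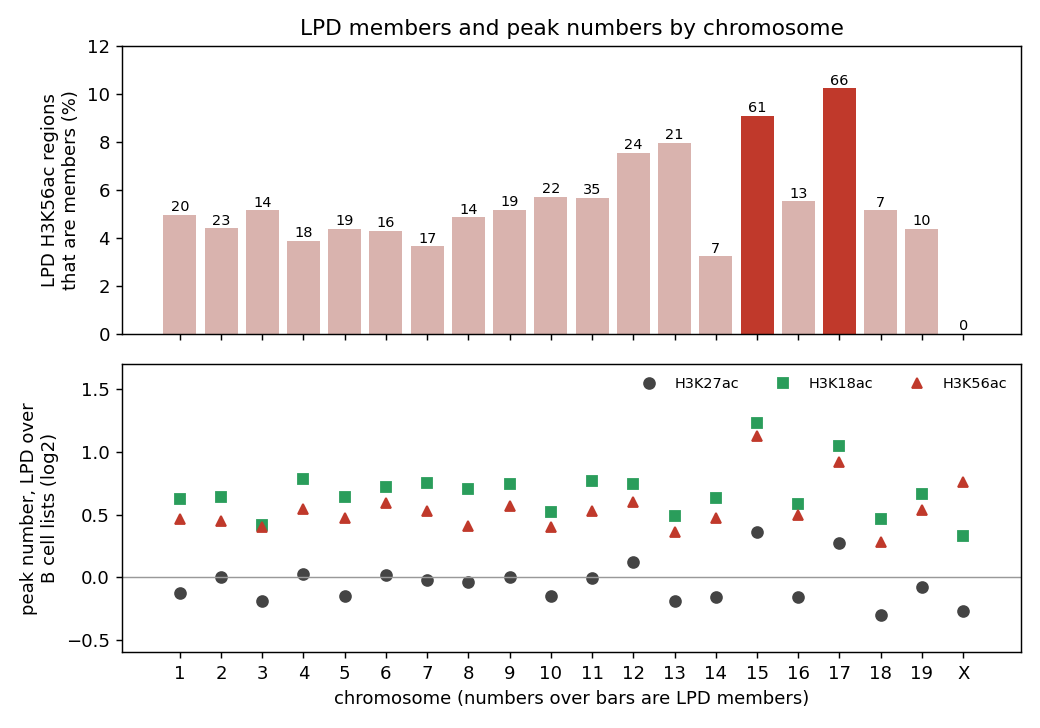
Upper plot, percent of the LPD H3K56ac regions on each chromosome that are members, with the number of members over each bar. Lower plot, log2 ratio of LPD to B cell peak numbers (mean of 2 lists each) for the 3 marks; chromosomes 15 and 17 (darker bars) have the highest member shares and, for each mark, the highest ratios.

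At the level of genes, the members were assigned to 520 protein-coding genes (2.38% of 21883), 375 for LPD, 129 for B cell and 22 for shared members. No gene had more than 2, and 30 had 2. H3K27ac peaks lay elsewhere in the span of 70.8% of these genes, against 52.4% of all genes and 97.4% of the genes with H3K56ac and H3K27ac together. In all, 13 member pairs lay within 1 kb of each other, with gaps of 58 to 989 bp (median 213 bp). Of these, 9 were pairs of LPD members and 3 of B cell members. The last paired the LPD member printed above at Colca2 with a B cell member 71 bp away (chr9:51278648-51278943).

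Among the B cell members, the longest by H3K56ac lay at the divergent start of Fndc11 and Srms, a tyrosine kinase gene (chr2:181212262-181213214). H3K56ac covered it for 934 and 451 bp in the B cell lists and for 0 and 452 bp in the LPD lists, and H3K18ac was found in the second B cell list alone (236 bp). The next lay inside Fcrlb, an Fc receptor-like gene of the B lineage (chr1:170908054-170908798), with 645 and 726 bp in B cells and 0 in both LPD lists. It had no H3K18ac. Pak6, a kinase gene, and Nrarp, a feedback regulator of Notch signalling, had the third and the fourth, with 822 and 490 bp and with 596 and 611 bp in the B cell lists. Both lacked H3K18ac, and both had H3K56ac in 1 LPD list (236 and 367 bp). The Nrarp member lay 2.35 kb outside the gene. The fifth lay in Klhl22, which encodes an adaptor of a ubiquitin ligase, 22 bp from the end of the gene, and carried wild-type progenitor H3K27ac (450 bp). The last, at Spock2, a proteoglycan gene, had 594 and 496 bp in B cells and 285 bp in 1 LPD list.

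Of the 5 genes with 2 B cell members, all but Arhgap26 had them as a close pair at a gene end. At Kdm1b and Tpmt the members were chr13:47043541-47044143 and chr13:47044262-47044698, 118 bp apart, and both held progenitor H3K27ac of both genotypes. H3K56ac over them summed to 0.734 and 0.945 kb in the B cell lists and to 0.524 and 0 kb in the LPD lists, so the lists of LPD did not match each other here. The nearest H3K27ac peak of the 4 lists was 59981 bp away. Cers6, a ceramide synthase gene, had 2 members 394 bp apart at its end, with 0.511 and 0.755 kb in B cells and 0 in LPD. Dipk2a had 2 members 213 bp apart, with 0.591 and 0.616 kb against 0, and H3K27ac 106 bp from the nearer one. Arhgap26 had 2 within its span but far apart. Its H3K18ac was 0.812 and 0.698 kb in B cells and 0 in LPD, and H3K27ac over the whole gene went from 16.2 and 16.0 kb to 1.31 and 0.615 kb.

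The longest LPD members carried H3K18ac that was longer than their H3K56ac in at least 1 LPD list in 4 of 6 cases. The first lay 7.03 kb from Cbx5, which encodes heterochromatin protein 1 alpha (chr15:103182932-103184516). H3K56ac covered 760 and 674 bp in LPD and 0 in B cells, and H3K18ac 1585 and 1071 bp in LPD and 201 and 0 bp in B cells. The Card10 start, printed above, was the second. Exoc3l4 had the third, with H3K56ac of 671 and 646 bp and H3K18ac of 568 and 448 bp in LPD and neither mark in B cells. Near Myl7, an atrial myosin gene, and near Cryaa, a lens crystallin gene, H3K18ac was already present in both B cell lists (632 and 577 bp, and 538 and 539 bp) where H3K56ac was 0. In LPD the H3K56ac was 684 and 630 bp near Myl7 and 732 and 566 bp near Cryaa. At the start of A4galt, a glycolipid synthase gene, H3K56ac was 604 and 653 bp and H3K18ac was found in the first LPD list alone (483 bp).

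The longest LPD members without any H3K18ac lay at Fkbp1b and Wdcp, in Arid1b and at Zfyve9. At the start of Fkbp1b, which encodes a regulator of calcium channels, H3K56ac was 757 and 439 bp in LPD and 0 and 249 bp in B cells. In Arid1b, a gene of the SWI/SNF chromatin remodeller, it was 775 and 262 bp in LPD and 0 in both B cell lists. At the end of Zfyve9, which encodes an adaptor of TGF-beta receptor signalling, it was 512 and 499 bp against 224 and 0 bp.

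Of the genes with 2 LPD members, 3 of the 10 with the longest H3K56ac were on chromosome 15 (Cyrib, Plec and Grhl2) and 2 on chromosome 17 (Prkce and Ggnbp1). Cyrib, a regulator of Rac signalling, had 0.978 and 0.638 kb of member H3K56ac in LPD and 0 in B cells, while H3K27ac elsewhere in its span was 15.4 and 15.5 kb in the B cell lists and 19.1 and 14.0 kb in those of LPD. Prkce, a protein kinase C gene, had H3K18ac of 1.21 and 0.714 kb over its members in LPD and 0 in B cells, with 32.0 to 42.2 kb of H3K27ac in its span over the 4 lists. Ripply3, a transcriptional corepressor gene, and Pld2, a phospholipase D gene, lacked H3K27ac over the whole gene in all 4 lists. Ripply3 had 0.573 and 1.04 kb of H3K56ac in LPD, 0 in B cells and no H3K18ac, and Pld2 had 0.452 and 0.930 kb, with H3K18ac in the first LPD list alone (0.662 kb). Grhl2, an epithelial transcription factor gene, had 0.697 and 0.689 kb of H3K56ac and 1.11 and 0.656 kb of H3K18ac in LPD and neither in B cells. Of these, 342 and 474 bp of H3K56ac and 752 and 656 bp of H3K18ac belong to a member 33.0 kb outside the gene. Antxr1, an anthrax toxin receptor gene, had H3K18ac in all 4 lists (0.395 and 0.486 kb in the B cell lists, 1.44 and 1.61 kb in those of LPD). Macrod1, Rcan1, Plec and Ggnbp1 had summed member H3K56ac between 0.561 and 0.885 kb in the LPD lists, and of these Plec alone had any in a B cell list (0.228 kb). For Ggnbp1, 1 of the members lay 12.1 kb outside the gene, and for Plec 1 lay 0.759 kb outside.

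The shared members were few and even between groups. The longest, in Dip2b (chr15:100089712-100090359), had 577 and 300 bp of H3K56ac in B cells and 560 and 417 bp in LPD. At the start of Mlkl, the effector of necroptosis, it was 552 and 393 bp against 379 and 331 bp. That region lay 37.5 kb from H3K27ac in the 4 lists, and both progenitor lists had H3K27ac there (264 and 200 bp). Beside Bmpr2, a BMP receptor gene, the member had 518 and 286 bp against 291 and 486 bp, H3K18ac in 3 lists and an H3K27ac peak 193 bp away. The others of the 6 longest lay at 1810010H24Rik, near Bst1, an ectoenzyme gene, and in Arid1b, which thus had 1 shared and 1 LPD member. Without H3K18ac, the longest lay at the starts of Smpdl3b and Sec14l2 and 26.8 kb from Bcl11a, a lymphoid transcription factor gene, where H3K56ac was 257, 239, 370 and 360 bp in the 4 lists.

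Of 235 genes in 13 lists, mostly of blood cell identity, division and chromatin, 9 had a member (3.83%, interval 1.77 to 7.15%), against 2.38% of all protein-coding genes. With 12 to 25 genes a list, each list had 0, 1 or 2. B cell identity genes had 1 of 25, Pax5, the transcription factor that keeps B cell identity. Its B cell member (chr4:44716529-44716847) lay 5.83 kb outside the gene, with 319 and 298 bp in B cells and 0 in LPD, while H3K27ac over the gene itself ranged from 13.6 to 22.4 kb in the 4 lists. Early B cell development genes had 1 of 13, Lef1, with 358 and 205 bp of H3K56ac and 303 and 219 bp of H3K18ac in B cells, neither in LPD, and wild-type progenitor H3K27ac. T and NK cell genes had 1 of 24. This was Cd4, the T cell co-receptor, where the LPD member lay 500 bp outside the gene and inside the neighbouring gene Gpr162, 3 bp from its end, with 429 and 343 bp in LPD, 0 in B cells, no H3K18ac, and no H3K27ac over Cd4 in any list. This member lies in the 1 kb around Cd4 that the marker count above took in, in the same 2 LPD lists. The Cd4 peak of that count is therefore not a separate observation. The part of T cells in this member was not tested.

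Lymphoma oncogenes and suppressors had 2 of 22, both LPD members outside the gene. The one 24992 bp from Ccnd2, which encodes cyclin D2, had 277 and 249 bp of H3K56ac and 787 and 948 bp of H3K18ac in LPD, and neither mark in B cells. The one 10.9 kb from Pim1, a kinase oncogene, had 236 and 568 bp of H3K56ac and 624 and 695 bp of H3K18ac in LPD and neither in B cells. H3K27ac over the Ccnd2 span was 1.76 and 1.35 kb in B cells and 4.997 and 4.19 kb in the LPD lists, and over Pim1 it was 4.52, 4.48, 4.76 and 4.13 kb in the same order. Cell division genes had 1 of 21, Ccnb1 (cyclin B1), with 213 and 200 bp in LPD in a member 265 bp outside the gene. Stem and progenitor genes had 1 of 13, Hoxa9, with 276 and 295 bp in LPD in a member 1.35 kb outside the gene, and no H3K27ac over the gene. The control lists had 1 of 12 housekeeping genes, Ywhaz, and 1 of 14 genes of other tissues, Gfap. The Ywhaz member lay 37.2 kb outside the gene. Germinal centre and plasma cell genes (14), myeloid genes (21), erythroid and megakaryocyte genes (17), genes of H3K56 acetylation and histone deposition (19) and DNA damage and p53 genes (20) had no member.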

How the data were processed

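The submitters' processing notes name the build mm10 and the tools bedtools, Picard, Bowtie2 2.1.0 and MACS2 2.0.10, and settings are not given in the sources used here. Each deposited list gives the peak positions of 1 library and no score, so no depth can be read from it. All later steps used Python 3.11.15, numpy 2.4.6, pandas 2.3.3, scipy 1.17.1 and matplotlib 3.10.9, and the code was tested on simulated lists. An overlap of 1 bp placed a peak in a region. A region went to every protein-coding gene within 1 kb, otherwise to the nearest within 50 kb. Log2 covered lengths were compared by exact two-sided permutation over lists. Shares have 95% Clopper-Pearson intervals, and the limit given for a count of 0 is 3 counts of the total. H3K18ac peaks helped to draw the regions, so members with H3K18ac are wider in part by construction. Gene and promoter annotation is RefSeq GRCm38.p6, whose gene table here has no strand, so either end counts as a gene end. All 235 listed genes matched by symbol.

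Named regions are the 6 longest members of each class by H3K56ac and the 3 longest with and without H3K18ac. Named genes are Crebbp, Ep300, the 10 with most LPD members, 5 with most B cell and 5 with most shared members (ties broken by H3K56ac length), and up to 4 of each gene list. The members, lists and alternatives were chosen with earlier results of these data known. Alternatives changed the merging, the distance to H3K27ac, peak width and list length, or left out each list in turn.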

Additional observations from a re-analysis of the deposited data

How the results depend on the processing

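The number of members and the balance of the classes depended on the lists. H3K18ac over LPD members was higher in LPD under every alternative that gave a value, and lists of equal covered length gave none. Each alternative still chose LPD members by H3K56ac in the LPD lists and B cell members by H3K56ac in the B cell lists. These runs are therefore not independent of that choice. Over leaving out each of the 12 lists in turn, with the remaining list standing for its group, members numbered 587 to 1271, LPD members 388 to 1092, B cell members 119 to 574 and shared members 21 to 59. The log2 ratio of LPD to B cell members ranged from -0.56 (without the second B cell H3K56ac list) to 3.20 (without the first LPD H3K56ac list). In the same runs H3K18ac was at 49.8 to 78.0% of all members, 58.3 to 82.2% of LPD and 32.4 to 50.8% of B cell members. Gene ends were near 26.2 to 34.5%, wild-type and Crebbp-null progenitor H3K27ac were at 5.66 to 12.1% and 3.03 to 8.00%, CBP was at 0.0787 to 0.196%, and chromosomes 15 and 17 held 21.6 to 32.4% of LPD members. The log2 difference in H3K18ac was 3.66 to 4.40 over LPD members and -1.58 to -0.25 over B cell members. With the lists of equal number paired (replicate block, exact sign changes over 2 pairs), the differences stayed at 4.08 and -0.81 by construction, with p = 0.5 for both, the smallest it can be.

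With every list of a mark shortened to equal covered length there were 1 LPD, 618 B cell and 1 shared member, a log2 ratio of -9.27. The shortening drops narrow peaks of both marks that the rule uses, so these members are a different set from those of the full lists. H3K18ac was then at 73.2% of members and 73.3% of B cell members, gene ends at 41.5%, and progenitor H3K27ac at 39.4% (wild type) and 24.2% (Crebbp-null). The H3K18ac difference over B cell members was then -4.57. With 1 LPD member, no share or H3K18ac difference was taken for that class. With peaks of at least 300 bp there were 314 members (247 LPD, 61 B cell and 6 shared), 32.8% of the B cell members had H3K18ac, 0% of members had CBP, and chromosomes 15 and 17 held 34.4% of LPD members. Merging peaks up to 500 bp apart put H3K18ac at 76.6% of LPD members and gene ends at 27.6%. Excluding H3K27ac within 1 kb put gene ends at 28.1%, and excluding progenitor H3K27ac put H3K18ac at 36.8% of B cell members. H3K56ac peaks as units put CBP at 0%. Requiring H3K18ac in both lists of a group gave 45.7% of members (53.5% of LPD, 21.3% of B cell). Gene ends within 500 bp and 2.5 kb gave 27.9 and 39.8%, and progenitor peaks within 1 kb gave 17.5 and 13.6%. The alternatives for chromosomes 15 and 17 were chosen after seeing the data.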
